A study of Mus musculus with 7 samples.

Results

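Nuclear genes that build and supply the mitochondrial translation machinery were followed in splenic type 1 conventional dendritic cells (cDC1), the dendritic cells that specialise in presenting captured antigen to CD8 T cells. The set was taken by gene symbol. It held every symbol that begins with Mrpl or Mrps and a digit, every symbol that ends in ars2, and Dap3. This gave 93 of the 19505 named genes on the array, of which 48 belong by name to the large subunit of the mitochondrial ribosome, 29 to the small subunit, and 16 are mitochondrial aminoacyl-tRNA synthetases. Each of the 93 was measured by 1 probe set. The rule itself used no measured value, though it was set with earlier results of these data known. In the KO group, 4 arrays came from C57BL/6 mice carrying a floxed Opa1 gene and a Cre recombinase driven by CD11c, which acts in CD11c-expressing cells generally and not in cDC1 alone. In the WT group, 3 arrays came from C57BL/6 wild-type mice. All donors bore B16-OVA tumors, a mouse melanoma line that expresses ovalbumin. Age, sex, zygosity and whether each array came from a separate mouse are not given, so p-values here speak only of array-to-array spread, and part of it may be technical.

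Mitochondrial ribosomes translate the few messages of mitochondrial DNA, which encode core subunits of the respiratory chain and ATP synthase. Their RNAs come from mitochondrial DNA, but every ribosomal protein, synthetase and translation factor is encoded in the nucleus and imported. OPA1, the GTPase targeted in the KO mice, fuses the inner mitochondrial membrane and shapes the cristae, and mitochondrial ribosomes work at that membrane. In mammals many of the ribosomal proteins have a counterpart in the bacterial ribosome, while others hold places that it lacks. Each mitochondrial synthetase attaches 1 amino acid to mitochondrial tRNAs.

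Promoter sequences were examined because genes of this set are known targets of shared transcription factors, among them NRF1 and the ETS factor GABP. For 81 of the 93 genes a window of 300 bases was at hand, from 250 bases before to 50 after the annotated start (RefSeq, GRCm38.p6, the window listed first for each gene). Motifs were searched on both strands. They were NRF1 (GCGC, any base, then TGCGC), ETS (CCGGAAG), YY1 (AANATGGCG), the E-box (CACGTG) and the amino acid response element CARE (TGATGNAA), and no motif was removed for overlapping another. The NRF1 letters were in 15 of the 81 windows (18.5%), against 7.05% of the 15691 promoters of measured genes and 4.78% of all 27025 promoters. ETS letters were in 28 (34.6%), against 12.2% and 9.12%, and YY1 letters in 15 (18.5%), against 3.47% and 2.51%. The E-box was in 6 windows (7.41%, against 8.18% and 7.24%) and CARE in 0 (against 3.5% and 4.06%). A match is a string of letters, not a measured binding site. The 4 windows printed here are examples from genes described below. They are a large subunit gene with an NRF1 match, another with ETS and YY1 matches, and the paralogs Mrps18b and Mrps18c. The group means of these paralogs differed in opposite directions. Whether a match goes with a difference in expression was not tested. Capitals mark NRF1, ETS and YY1 matches. On the other strand an ETS match reads CTTCCGG and an NRF1 match reads GCGCA, any base, then GCGC, as in Mrpl44.
Mrpl44, chr1:79775768-79776067, plus strand: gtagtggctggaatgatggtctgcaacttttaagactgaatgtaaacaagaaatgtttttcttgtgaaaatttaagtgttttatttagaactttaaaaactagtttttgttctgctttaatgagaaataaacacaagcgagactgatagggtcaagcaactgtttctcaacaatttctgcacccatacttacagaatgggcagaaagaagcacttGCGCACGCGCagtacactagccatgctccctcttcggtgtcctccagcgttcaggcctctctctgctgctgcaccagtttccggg
Mrpl58, chr11:115403502-115403801, plus strand: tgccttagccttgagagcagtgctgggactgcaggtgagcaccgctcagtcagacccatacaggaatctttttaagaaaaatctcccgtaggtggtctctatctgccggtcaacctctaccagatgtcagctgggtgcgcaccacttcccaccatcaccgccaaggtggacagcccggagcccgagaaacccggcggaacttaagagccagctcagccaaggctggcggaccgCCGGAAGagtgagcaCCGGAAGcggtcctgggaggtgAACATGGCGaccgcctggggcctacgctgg
Mrps18b, chr17:35916391-35916690, minus strand: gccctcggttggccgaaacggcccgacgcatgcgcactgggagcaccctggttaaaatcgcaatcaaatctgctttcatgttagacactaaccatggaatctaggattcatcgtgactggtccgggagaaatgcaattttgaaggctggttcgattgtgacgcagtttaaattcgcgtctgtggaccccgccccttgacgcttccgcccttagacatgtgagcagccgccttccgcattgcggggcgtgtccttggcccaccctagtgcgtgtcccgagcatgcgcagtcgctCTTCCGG
Mrps18c, chr5:100798509-100798808, plus strand: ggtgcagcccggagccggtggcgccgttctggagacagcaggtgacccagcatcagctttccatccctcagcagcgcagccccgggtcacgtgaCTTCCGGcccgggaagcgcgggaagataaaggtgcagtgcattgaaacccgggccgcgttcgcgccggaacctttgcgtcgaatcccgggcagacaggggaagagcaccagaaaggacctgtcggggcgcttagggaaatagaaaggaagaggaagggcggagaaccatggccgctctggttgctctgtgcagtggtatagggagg
In Mrpl44 the NRF1 match began 35 bases before the start. The 2 ETS matches of Mrpl58 began 17 and 2 bases before it. That of Mrps18c began 156 bases before the start, while Mrps18b carried its match after the start.

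The targeted gene was checked before the comparison. Opa1 read 7.70, 7.10, 6.85 and 8.24 on KO 1 to 4, against 8.14, 8.80 and 9.15 on WT 1 to 3. On no array, KO or WT, did it exceed the 95th percentile of the negative control probe sets. KO 4 exceeded WT 1, so the groups overlapped. The difference was -1.22 (SE 0.36, limma, adjusted p = 0.223), and an exact two-sided permutation test over 35 splits of the arrays gave p = 0.114, where the smallest possible is 0.0571. KO and WT stand throughout for the arrays labelled so. Marker lists also set 2 WT arrays apart. The mean of 14 melanocyte and melanoma markers was 7.34 to 8.06 on the KO arrays, against 11.43, 11.96 and 9.08 on WT 1 to 3, with 14 of 14 lower in KO on average and 12 without overlap. None of them exceeded the 95th percentile of the negative control probe sets on a KO array, whereas 11, 12 and 3 did on WT 1 to 3. Means of 12 cDC1 markers were 11.92 to 12.02 on the KO arrays, against 11.08, 9.37 and 11.88 on WT 1 to 3. The defining receptor Xcr1 read 12.70 to 12.79 on the KO arrays, against 12.12, 7.97 and 12.76 on WT 1 to 3, and Cd8a read 11.95 to 12.12, against 7.89, 6.96 and 12.11. The pigment cell genes Pmel and Tyr read 7.99 to 9.75 and 6.203 to 7.15 on the KO arrays, against 11.62 to 13.59 and 8.80 to 12.31 on the WT arrays. Monocyte and macrophage markers averaged 8.28 to 8.86 on the KO arrays, against 8.36, 10.34 and 9.14, and cDC2 markers 8.24 to 8.74, against 8.28, 10.12 and 8.99. The remaining lists overlapped between the groups, with means of 9.73 to 9.97 in KO, against 9.24 to 10.30 in WT, for plasmacytoid cells, 7.64 to 8.06, against 7.40 to 8.11, for B cells, 6.84 to 8.27, against 6.87 to 8.33, for T and NK cells, 7.22 to 7.92, against 6.94 to 7.64, for neutrophils, 8.35 to 8.93, against 7.89 to 8.55, for the erythroid list (1 gene measured), and 7.98 to 8.32, against 7.90 to 8.12, for fibroblasts and endothelium. What other cells contributed to the differences below was not tested, and in such bulk samples fewer cells of a type and less RNA per cell cannot be told apart.

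Against that background the mitochondrial translation genes differed little between KO and WT arrays. No gene of the 19505 passed an adjusted p of 0.05 (0%; limma with Benjamini-Hochberg adjustment), and so 0 of the 93 did. At an unadjusted p under 0.05 there were 16 members lower in KO (10.6% of all genes were) and 5 higher (8.98% of all genes). Differences spanned -0.73 to 0.56 on the log2 scale, while those of all genes spanned -4.86 to 3.32. A difference within 0.25 of 0 was found for 63 of the 93 (67.7%), against 64.3% of all genes, and one beyond 0.5 for 7 (7.53%), against 14.2%. Ribosomal protein genes were on average lower in KO and synthetases were not. The median difference was -0.10 for the large subunit, with 32 of 48 genes lower, and -0.10 for the small subunit, with 19 of 29 lower. For the synthetases it was 0.057, with 7 of 16 lower, close to the median of all genes, which was 0.059 with 40.1% lower. In 12 members all KO values lay below all WT values (12.9%, against 5.92% of all genes), and in 3 all lay above (3.23%, against 7.85%). Among genes with a mean at or above the median transcript probe set, 12 of 89 members (13.5%) lay below, against 8.19% of all such genes, and 3 (3.37%) above, against 6.57%.

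**Figure D1:**
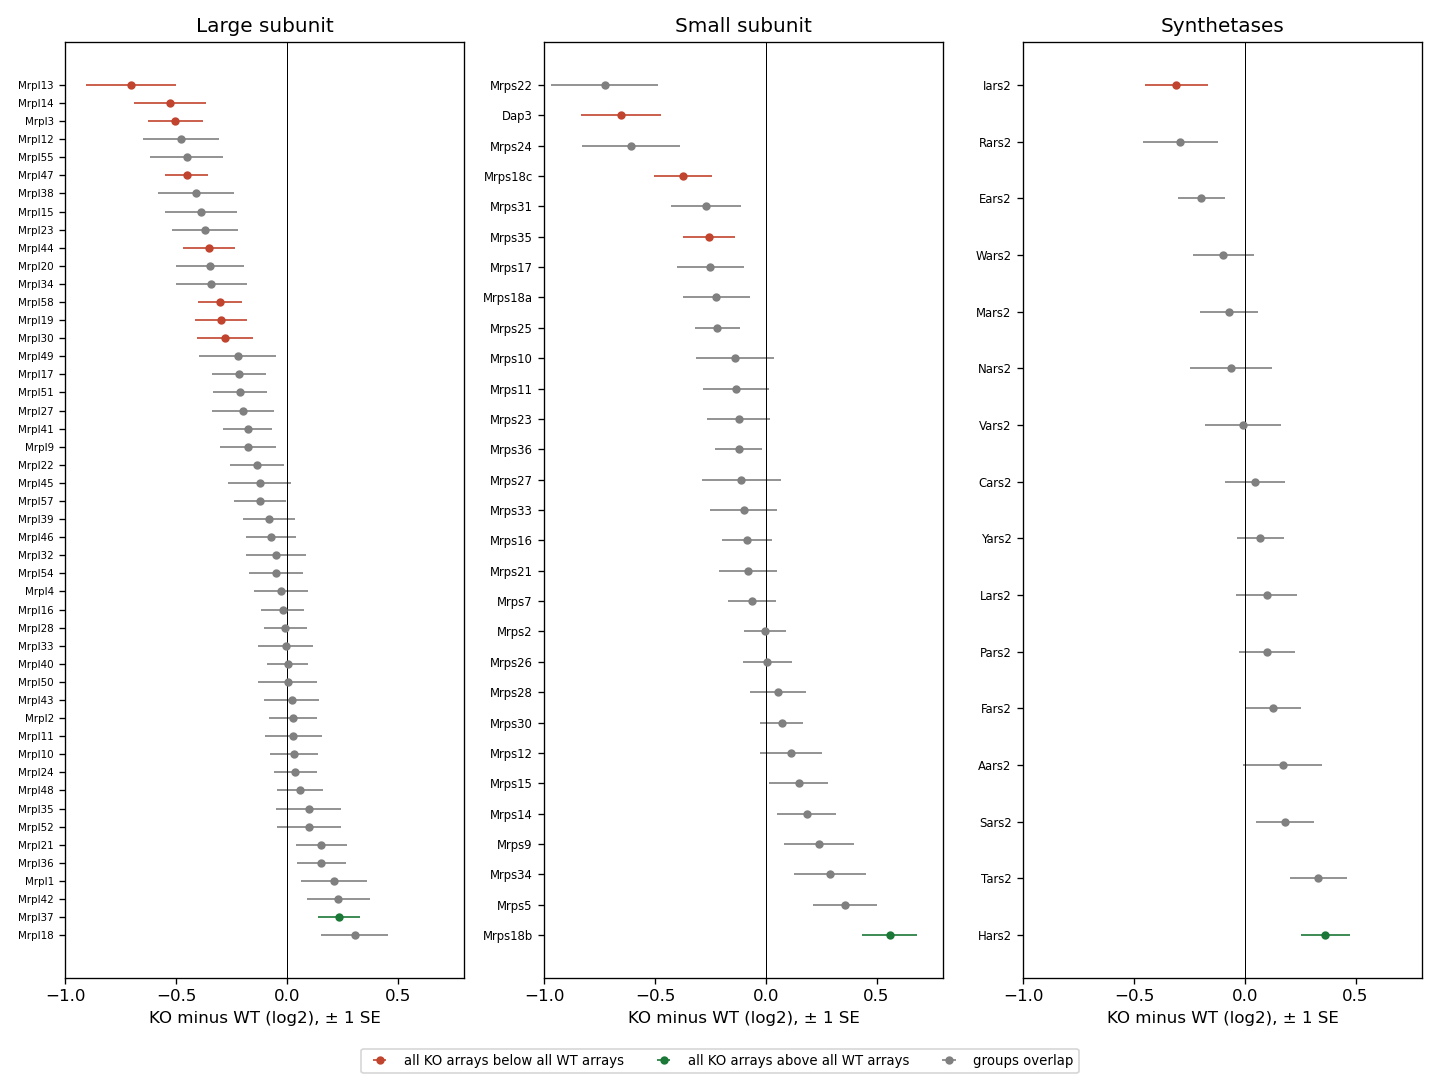
Difference between KO and WT arrays in log2 units for each of the 93 genes, in 3 panels by class, with bars of 1 standard error from limma. The large subunit runs from -0.70 (Mrpl13) to 0.31 (Mrpl18), the small subunit from -0.73 (Mrps22) to 0.56 (Mrps18b) and the synthetases from -0.31 (Iars2) to 0.36 (Hars2); coloured points mark genes whose arrays do not overlap between the groups.

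Which WT arrays were used decided whether members were called. Without WT 3, which leaves the WT arrays with the highest melanocyte markers, limma called 17 members lower and 5 higher in KO (adjusted p under 0.05), against 13.8% of all genes lower and 11.4% higher. Together these 22 were 23.7% of the members, and the calls over all genes came to 25.3%. By class the calls were 13 of 48 in the large subunit (all lower), 4 lower and 3 higher of 29 in the small subunit, and 2 of 16 synthetases (both higher). When WT 1 and WT 2 were left out instead, 0 of the 93 and 0% of all genes were called. WT 3 was then the lone WT array, with the spread of the KO arrays taken for it too. Without WT 3, groups did not overlap for 46 of the 93 members, against 46% of all genes. Without WT 1 and WT 2 they did not overlap for 31 of the 93, against 42.3% of all genes. Array weights, which gave WT 3 little weight, called 20 members (15 lower, 5 higher), against 22.9% of all genes, of which 12.6% were lower and 10.3% higher.

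Among large subunit proteins with a counterpart in the bacterial ribosome, 21 of 30 had a lower mean in KO, with a median difference of -0.15. Mrpl13, a conserved protein of the large subunit, read 8.53, 8.57, 8.82 and 8.09 on KO 1 to 4, against 9.17, 9.54 and 8.92 on WT 1 to 3. All WT values lay above the KO values, WT 3 by little. Its difference of -0.70 (SE 0.20) was the lowest of the large subunit (limma, adjusted p = 0.223). Mrpl3, which reaches toward the peptidyl transferase centre, read 9.97, 10.36, 10.17 and 10.11 in KO, against 10.81, 10.60 and 10.56 in WT. Here WT 3 stood near WT 2, and the difference was -0.50 (SE 0.12, limma, adjusted p = 0.223). Mrpl47, located at the exit of the nascent chain tunnel, read 9.18, 9.26, 9.17 and 9.32 in KO, against 9.68, 9.79 and 9.59 in WT. The KO arrays varied little (SD 0.069, n = 4) and every WT array stood clear of them, with a difference of -0.45. Against WT 3 alone the differences of Mrpl3 and Mrpl47 were -0.40 and -0.36.

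Mrpl14 and Mrpl12 showed the other pattern. Mrpl14, a protein of the interface between the subunits, read 9.57, 9.77, 9.64 and 9.64 in KO, against 10.30, 10.46 and 9.80 in WT. WT 3 exceeded KO 2 only narrowly, and the difference of -0.53 became -0.14 against WT 3 alone. Mrpl12, a protein of the stalk that in human cells also binds the mitochondrial RNA polymerase, read 9.32, 9.33, 9.09 and 9.29 in KO, against 9.90, 9.999 and 9.31 in WT. WT 3 lay within the KO range, so the groups overlapped. Mrpl19 and Mrpl30, the remaining conserved proteins without overlap, differed by -0.30 and -0.28. At the other end, Mrpl18 read 9.75 to 10.24 in KO, against 9.62, 9.59 and 9.97 in WT, a difference of 0.31 with overlap. Mrpl1, a protein of the flexible stalk at the tRNA exit side, differed by 0.21, also with overlap.

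Proteins of the large subunit at places that the bacterial ribosome lacks had a median difference of -0.075, with 12 of 20 lower in KO. This list and the one above assign proteins by their place in the mammalian ribosome, so they include Mrps30 and Mrps18a, which sit in the large subunit despite their names. Mrpl44, which has a fold related to RNase III, read 8.72, 8.74, 8.82 and 8.83 in KO, against 9.20, 9.29 and 8.89 in WT. Mrpl58, a peptidyl-tRNA hydrolase built into the ribosome, read 10.72, 10.82, 10.70 and 10.63 in KO, against 11.10, 11.06 and 10.89 in WT. Neither gene overlapped between groups, and their differences were -0.35 (SE 0.12) and -0.30 (SE 0.10; limma, adjusted p = 0.223 for each). Mrpl37 was the single large subunit gene with all KO arrays above all WT arrays. It read 11.96, 11.93, 11.90 and 11.83 in KO, against 11.73, 11.55 and 11.73 in WT, a difference of 0.23. Mrpl42 differed by 0.23 as well but read 11.50 on WT 3, inside the KO range of 11.28 to 11.65. Mrps30 differed by 0.072, with overlap.

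Differences beyond 0.5 were found for 4 of 29 small subunit genes (13.8%), near the 14.2% of all genes. Of the small subunit proteins with a counterpart in the bacterial ribosome 9 of 15 had a lower mean in KO (median -0.062), and of those at places that the bacterial ribosome lacks, Mrps18b among them, 8 of 11 (median -0.12). Dap3, a GTP-binding ribosomal protein that was named for a role in cell death, read 9.51, 9.84, 9.57 and 9.50 in KO, against 10.10, 10.69 and 9.99 in WT. All WT arrays lay above all KO arrays, with a difference of -0.65 (SE 0.18, limma, adjusted p = 0.223) and of -0.39 against WT 3 alone. Mrps22, found only in mitochondrial ribosomes, read 8.01, 8.29, 7.999 and 8.41 in KO, against 9.42, 8.94 and 8.35 in WT. Mrps24, a conserved small subunit protein, read 8.04, 8.49, 8.40 and 8.46 in KO, against 9.27, 9.19 and 8.42 in WT. Both had the high values on WT 1 and WT 2, while WT 3 lay within the KO range. Their differences of -0.73 and -0.61 were -0.18 and -0.066 against WT 3 alone. Mrps35, at 8.02 to 8.45 in KO, against 8.54, 8.49 and 8.49 in WT, had WT arrays that were close to each other (SD 0.030, n = 3). Among the genes with higher means in KO, Mrps5 differed by 0.36, Mrps34 by 0.29 and Mrps9 by 0.24, each with overlap. Mrps9 reversed against WT 3 alone (-0.14). Mrps36, which carries a ribosomal name but is better known as a part of the 2-oxoglutarate dehydrogenase complex, differed by -0.12 with overlap.

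The 3 Mrps18 genes are paralogs related to a bacterial small subunit protein, and the arrays gave them different patterns. Mrps18b, a small subunit protein, read 9.54, 9.37, 9.69 and 9.42 on KO 1 to 4, against 8.91, 8.80 and 9.13 on WT 1 to 3. Every KO array was above every WT array, with a difference of 0.56 (SE 0.12, limma, adjusted p = 0.223), the highest among the 93 genes. Mrps18c, the paralog that takes the place of the bacterial protein in the small subunit, read 10.22, 10.49, 10.44 and 10.25 in KO, against 10.91, 10.74 and 10.51 in WT. Its KO arrays all lay below its WT arrays, though KO 2 came within a short distance of WT 3, and the difference was -0.37 (SE 0.13, limma, adjusted p = 0.224). Mrps18a, the paralog placed in the large subunit, read 10.17, 10.56, 10.70 and 10.53 in KO, against 10.92, 10.66 and 10.56 in WT. The groups overlapped there (difference -0.22, SE 0.15, limma, adjusted p = 0.413). Against WT 3 alone the differences were 0.38 for Mrps18b, -0.16 for Mrps18c and -0.067 for Mrps18a. The contrast between paralogs was seen after their values were known and was not tested.

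**Figure D2:**
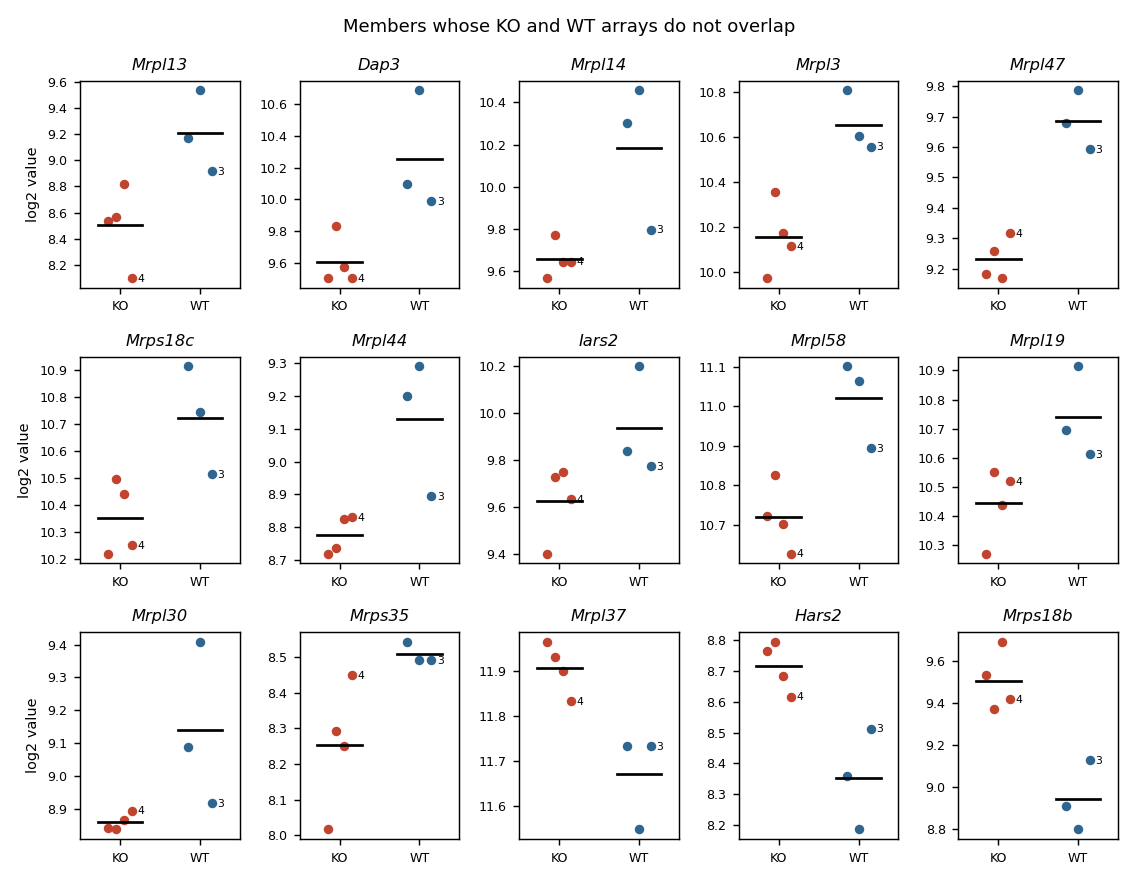
Log2 values of the 15 genes whose KO arrays (4 points, left) and WT arrays (3 points, right) do not overlap, with a bar at each group mean, the vertical scale differing by panel; the numerals 4 and 3 mark KO 4 and WT 3. In 12 genes the KO arrays lie lower and in 3 (Mrpl37, Hars2, Mrps18b) higher. In all 15 WT 3 is the WT array nearest to the KO arrays, by very little in Mrps35 and Mrpl37.

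Synthetases showed no common direction. Iars2, the isoleucyl enzyme, read 9.40, 9.73, 9.75 and 9.63 in KO, against 9.84, 10.20 and 9.78 in WT. WT 3 exceeded KO 3 by very little, and the difference was -0.31 (SE 0.14, limma, adjusted p = 0.267). Hars2, the histidyl enzyme, read 8.77, 8.79, 8.68 and 8.62 in KO, against 8.36, 8.19 and 8.51 in WT. All KO arrays were above all WT arrays, with a difference of 0.36 (SE 0.11, limma, adjusted p = 0.223). Tars2, the threonyl enzyme, read 9.05, 9.11, 9.03 and 9.26 in KO, against 8.60, 8.70 and 9.04 in WT. Its groups overlapped through WT 3 alone, and the difference was 0.33. Hars2 and Tars2 were the synthetases called without WT 3, at 0.44 and 0.46 (limma, adjusted p = 0.0218 and 0.0183).

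The remaining 13 synthetases overlapped between groups. Rars2, the arginyl enzyme, differed by -0.29 and was highest on WT 2 (8.94), and Ears2, the glutamyl enzyme, differed by -0.20. Wars2 (tryptophanyl), Mars2 (methionyl) and Nars2 (asparaginyl) differed by -0.097, -0.071 and -0.062. On the higher side stood Sars2 (seryl) at 0.18, Aars2 (alanyl) at 0.17 and Fars2 (phenylalanyl) at 0.13. Pars2 (prolyl) and Lars2 (leucyl) differed by 0.099 and 0.098, Yars2 (tyrosyl) by 0.069 and Cars2 (cysteinyl) by 0.046. Vars2, the valyl enzyme, had nearly equal group means (difference -0.0091), but its WT arrays were far apart. It read 9.41 to 9.54 in KO, against 9.72, 9.69 and 9.04 in WT, so that WT 1 and WT 2 lay above all KO arrays and WT 3 below them. Against WT 3 alone 9 of the 16 had a lower mean in KO, and the median difference of the class changed sign, to -0.021.

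**Figure D3:**
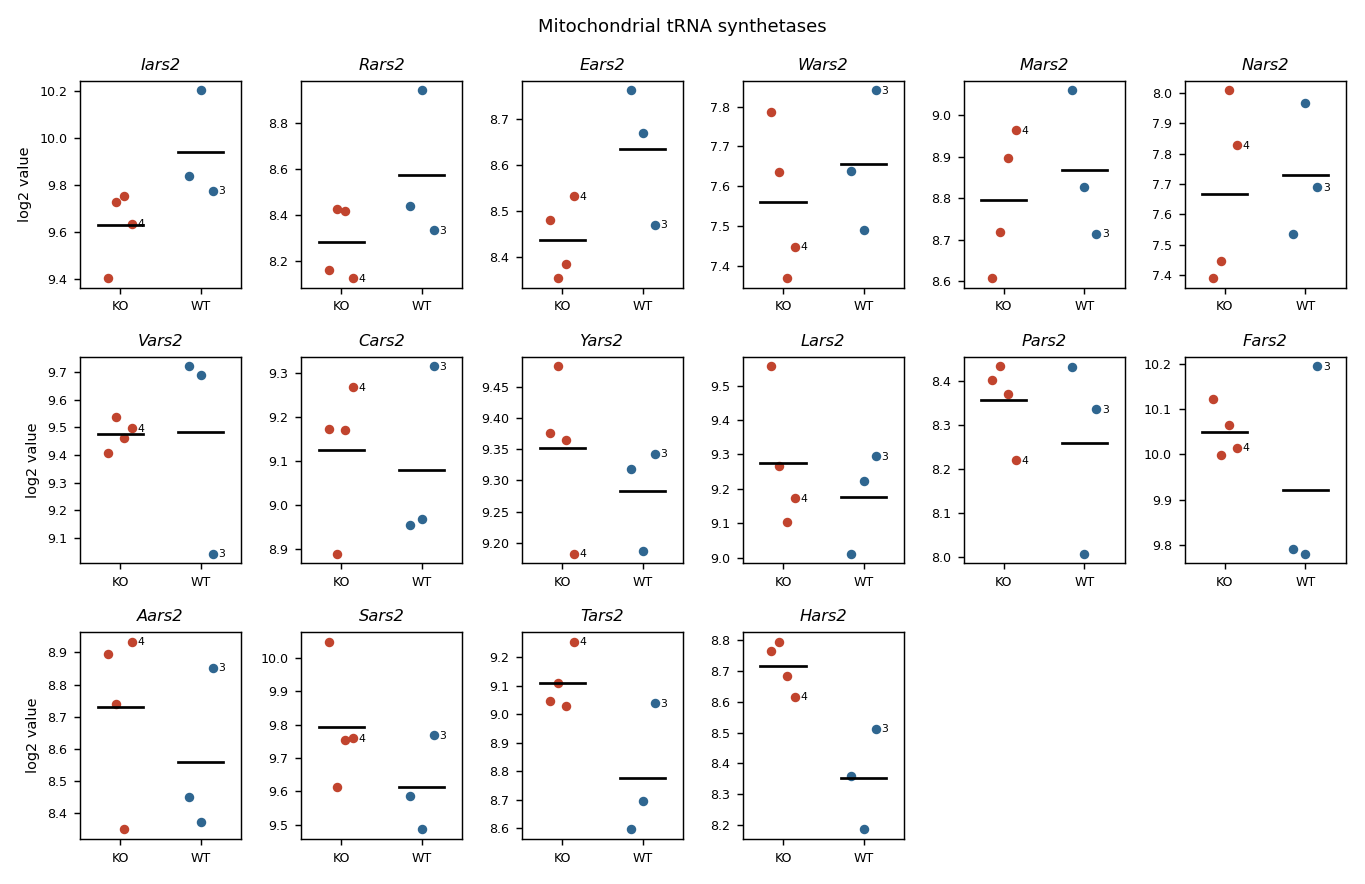
Log2 values of the 16 mitochondrial tRNA synthetases on KO arrays (4 points, left) and WT arrays (3 points, right), ordered by their difference from Iars2 (-0.31) to Hars2 (0.36), with a bar at each group mean and a vertical scale per panel; 4 and 3 mark KO 4 and WT 3. Only in Iars2 and Hars2 are the groups separate, and in Vars2 the array WT 3, at 9.04, lies apart from WT 1 and WT 2.

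To set the classes beside each other on each array, every gene was expressed as its deviation from its own KO mean, since levels of different probe sets cannot be compared. The KO arrays thus average 0 in every class. The large subunit stood at -0.042, 0.12, 0.027 and -0.10 on KO 1 to 4, against 0.14, 0.21 and 0.043 on WT 1 to 3. The small subunit stood at -0.091, 0.11, 0.027 and -0.040 on the KO arrays, against 0.11, 0.11 and 0.044 on the WT arrays. Both subunits thus ranked KO 2 above WT 3, and the range over the KO arrays was wider than the difference of the group means (-0.13 for the large and -0.087 for the small subunit). Synthetases stood between -0.011 and 0.016 on the KO arrays, against -0.054, -0.041 and 0.010 on the WT arrays.

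**Figure D4:**
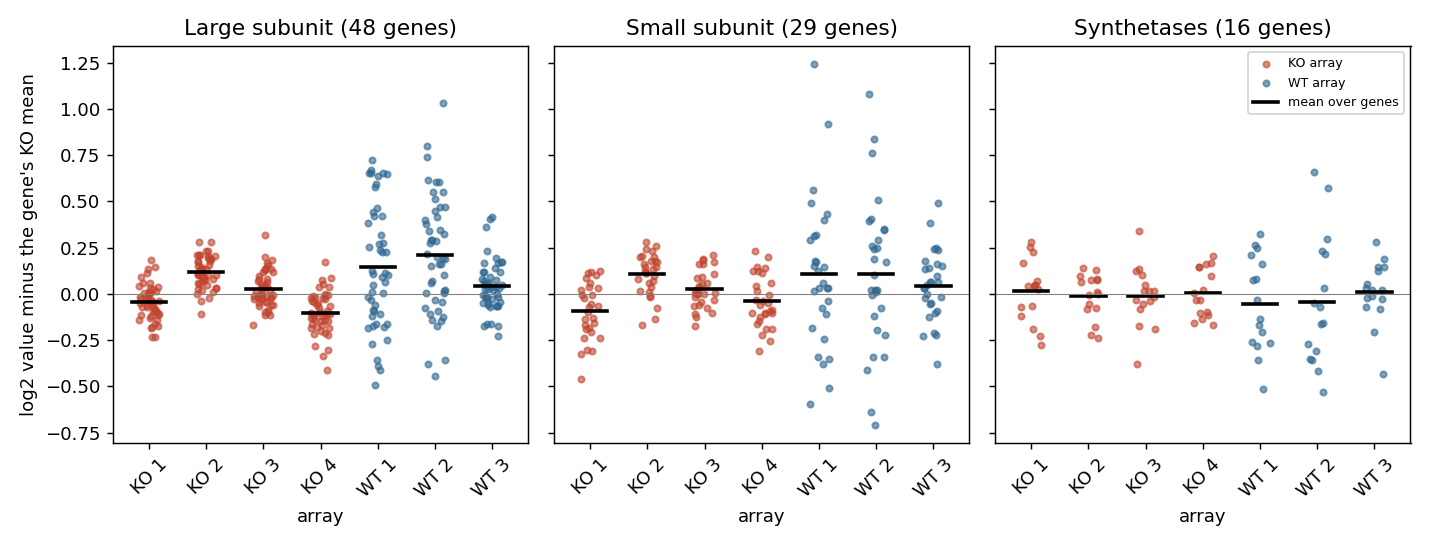
Deviation of each gene's log2 value from its own KO mean on KO 1 to 4 and WT 1 to 3, in panels for 48 large subunit genes, 29 small subunit genes and 16 synthetases, with a bar at the mean over genes. Genes spread more widely on WT 1 and WT 2 than on the other arrays, and the ribosomal bars are raised on KO 2 (0.12 and 0.11) as on WT 1 and WT 2.

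Large minus small subunit came to 0.049, 0.012, 0.00065 and -0.061 on KO 1 to 4, against 0.037, 0.10 and -0.00090 on WT 1 to 3. The KO and WT ranges overlapped, WT 2 alone lay above all KO arrays, and the KO minus WT difference was -0.046. With Mrps30 and Mrps18a counted in the large subunit and Mrps36 left out it was -0.044. Synthetases minus ribosomal proteins came to 0.077, -0.12, -0.038 and 0.084 on the KO arrays, against -0.18, -0.22 and -0.033 on the WT arrays. WT 1 and WT 2 lay below all KO arrays and WT 3 lay among them. The difference of 0.14 (KO minus WT) was 0.033 without WT 1 and WT 2.

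The KO arrays were set apart by how many ribosomal protein genes lay above their own KO mean. On KO 2, 44 of 48 large subunit genes (91.7%) and 24 of 29 small subunit genes (82.8%) were above their KO mean, against 55.4% of all genes. On KO 4 it was 6 (12.5%) and 10 (34.5%), against 42.7% of all genes. On KO 1 it was 16 (33.3%) and 9 (31%), against 52.6% of all genes, and on KO 3 the split was near even, with 25 (52.1%) and 16 (55.2%), against 50.4%. Of the mitochondrial synthetases 8 of 16 were above their KO mean on KO 2 and likewise on KO 4. On KO 2 and KO 4 the pattern was not particular to ribosomal proteins. Of the assembly factors and cytosolic synthetases 76.9% and 73.7% were above their KO mean on KO 2, and 23.1% and 31.6% on KO 4. On other arrays the cytosolic synthetases went differently, with 78.9% on KO 3, 36.8% on WT 1 and 47.4% on WT 2. Ribosomal proteins had 53.2%, 63.6% and 71.4% there, and assembly factors 57.7%, 61.5% and 57.7%. Control probe sets differed along the lines of the ribosomal proteins. The median of the 5222 negative control probe sets was 6.88, 6.49, 6.67 and 6.88 on KO 1 to 4, against 6.19, 6.26 and 6.71 on WT 1 to 3. Arrays with low control medians (WT 1, WT 2 and KO 2) were those with high ribosomal means (0.13, 0.17 and 0.11), and arrays with high control medians (KO 1 and KO 4) those with low ones (-0.061 and -0.078). The part of the controls in the ribosomal difference was not tested. All 93 genes lay above the control median on all 7 arrays. Above the 95th percentile of the controls on all 7 lay 26 (18 large subunit, 8 small subunit, 0 synthetases). That was 28% of the members, against 16.4% of all genes. On no array did 30 members exceed that level, 12 of them synthetases, against 12747 of all 19505 genes. Among these 30 were Mrps18b, Hars2, Tars2, Mrps22, Mrps24, Mrps35 and Mrpl44.

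**Figure D5:**
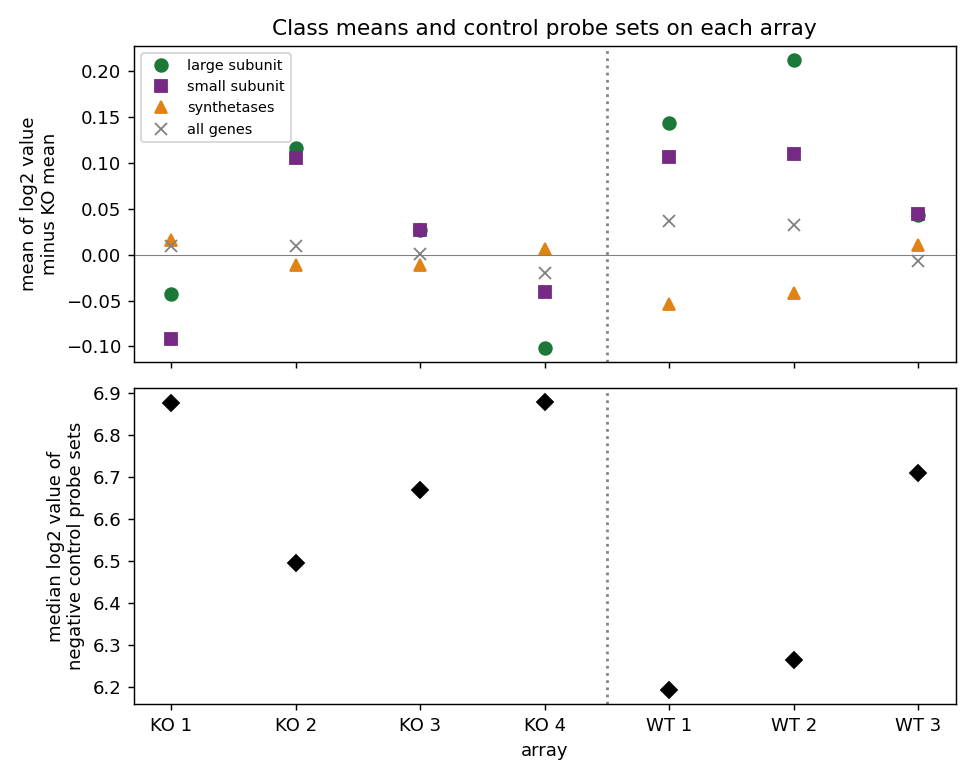
Upper panel, mean over genes of the log2 deviation from the KO mean on KO 1 to 4 and WT 1 to 3 for the large subunit, the small subunit, the synthetases and all 19505 genes; lower panel, median log2 value of the negative control probe sets on the same arrays. Ribosomal means are highest on WT 2 (0.21 and 0.11), where controls are low (6.26), and lowest on KO 1 and KO 4, where controls are highest (6.88).

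WT 1 and WT 2 each departed from the KO range for many members, and WT 3 for fewer, as over all genes. WT 1 lay above all KO arrays for 37 of the 93 and below for 20, against 5524 and 6545 of the 19505 genes. For WT 2 it was 44 and 17, against 5475 and 8205 of all genes. Both WT 1 and WT 2 lay above all KO arrays for 33 of the 93 (35.5%, against 20.6% of all genes) and both below for 13 (14%, against 25.4%). WT 3 lay within the KO range for 62 (66.7%, against 57.7%), above it for 21 and below it for 10, against 3539 and 4714 of the 19505 genes. Within groups the members varied as other genes did, with a median SD of 0.138 in KO and 0.185 in WT, against 0.142 and 0.197 over all genes.

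Other genes of mitochondrial translation were mixed. The 95th percentile of the controls was exceeded on no array by 11 of 18 translation factors and 15 of 26 assembly factors. The same held for 19 of 28 genes of mitochondrial RNA processing and modification, against 12747 of all 19505 genes. Mrrf, Mtif2, Mtif3, Tsfm, Mettl17, Rpusd4 and Nsun3, described below, were among them. Of 3 measured ribosomal proteins that lack the family name, all had lower means in KO. Gadd45gip1, a large subunit protein also studied as a nuclear regulator, read 8.96 to 9.34 in KO, against 9.65, 9.64 and 9.40 in WT, without overlap. Ptcd3 and Chchd1, of the small subunit, differed by -0.26 and -0.10 with overlap. Translation factors had 9 of 18 lower and a median difference of -0.020. Slirp, which stabilises mitochondrial messages with Lrpprc, read 11.19 to 11.41 in KO, against 11.67, 11.78 and 11.41 in WT, with KO 2 just under WT 3 (difference -0.34). Mrrf, the recycling factor, and Mtif2, an initiation factor, differed by -0.35 and -0.32. On the other side, Mtif3, the second initiation factor, differed by 0.64, Mtfmt, which formylates the initiator methionyl-tRNA, by 0.45, and Tsfm, the exchange factor of the elongation factor Tufm, by 0.30. These 5 genes overlapped between groups. Against WT 3 alone the differences were -0.35 for Mrrf, -0.58 for Mtif2, 0.13 for Mtif3, 0.14 for Mtfmt and 0.27 for Tsfm.

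Ribosome assembly factors had 16 of 26 lower and a median difference of -0.066. Mettl17, which acts in small subunit assembly, read 9.29 to 9.77 in KO, against 8.93, 8.75 and 9.06 in WT, and its KO arrays lay above all WT arrays. Gtpbp10, a GTPase of large subunit assembly, differed by -0.60, Mpv17l2 by -0.51 and the pseudouridine synthase Trub2 by -0.49, while Mterf3 differed by 0.50 and Rpusd4, another pseudouridine synthase, by 0.40. All of these overlapped between groups. Against WT 3 alone the differences were -0.14 for Gtpbp10, 0.0021 for Mpv17l2, 0.21 for Trub2, -0.15 for Mterf3 and -0.011 for Rpusd4. Genes of mitochondrial RNA processing and modification had 20 of 28 higher in KO and a median difference of 0.12, where all genes had a median of 0.059 with 40.1% lower. Without WT 1 and WT 2 the list had 15 of 28 lower and a median of -0.0096. Trit1, which modifies tRNAs with an isopentenyl group, read 9.84 to 9.95 in KO, against 8.68, 8.10 and 10.01 in WT. Ptcd2 and Fastkd1 differed by 0.68 and 0.67. All 3 had low values on WT 1 and WT 2 only, and WT 3 lay within or above the KO range. Nsun3, a methyltransferase of mitochondrial methionine tRNA, read 8.08 to 8.43 in KO, against 8.99, 8.91 and 8.63 in WT, without overlap. Trnt1, which adds the CCA end to tRNAs, differed by -0.50, and Cdk5rap1, a tRNA modifying enzyme, by -0.15. Both overlapped between groups, and against WT 3 alone they differed by -0.40 and 0.017.

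Cytosolic synthetases, measured for comparison, stood beside the mitochondrial enzymes as follows: 7 of 16 mitochondrial enzymes were lower, with a median difference of 0.057, against 8 of 19 cytosolic ones, with a median of 0.090. Wars, the tryptophanyl enzyme, which interferon induces, differed by -0.78, with the high values on WT 1 and WT 2 (11.69 and 11.74) and 10.66 on WT 3, inside the KO range of 10.41 to 10.73. Lars, the leucyl enzyme, differed by 0.79, Tarsl2 by 0.30 and Vars by 0.25. Kars and Gars, which also serve mitochondria, differed by -0.27 and -0.17. Among these only Tarsl2 was without overlap. Against WT 3 alone the differences were 0.17 for Lars, 0.19 for Tarsl2, 0.080 for Vars, 0.045 for Kars and -0.011 for Gars. Lars and Tarsl2 exceeded the 95th percentile of the controls on no array. With all arrays, no gene of these 5 related lists passed correction over all genes (limma, smallest adjusted p = 0.223). Without WT 3, limma called 35.7% of the RNA processing list, 26.9% of the assembly factors and 21.1% of the cytosolic synthetases. It called 16.7% of the translation factors and 33.3% of the 3 other ribosomal proteins, against 25.3% of all genes.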

How the data were processed

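Splenic cDC1 RNA was amplified by whole-transcript labelling and hybridised to Affymetrix arrays (source: the labels' protocols). The authors deposited log2 values of 28846 probe sets on 7 arrays. The submitters' processing notes name RMA and Expression Console 1.1. RMA compresses dim signals. The arrays, not a read depth, limit precision. Of 22206 transcript probe sets, 19572 had a gene symbol in the platform annotation. With 1 probe set per symbol, that of the highest mean over all arrays, 19505 genes remained. All columns were matched to samples by accession, and no coordinates of probe sets were used.

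KO was compared with WT by a linear model in limma 3.58.1 (R 4.3.3) with moderated variances and without covariates. Adjusted p-values are Benjamini-Hochberg values across the whole table, called under 0.05, and differences are given as KO minus WT on the log2 scale. Class summaries are descriptions with no test. Opa1 was also tested by exact permutation. The scripts were tested on simulated data. The members, related lists, markers, alternatives and tests were chosen with earlier results of these data known. Genes were named by rule: the 4 largest differences per class and direction, up to 6 without overlap per class and direction, all synthetases, the Mrps18 paralogs with Mrps30, Mrps36, Dap3 and Mrpl12, and the 3 largest differences per direction of each related list. Mrpl19 and Mrpl30 were added after their values were seen, as the last genes of a count. Marker lists of B, T and NK, neutrophil, erythroid, plasmacytoid, cDC2, and fibroblast and endothelial cells were measured too. Deviations from the group means correlated between arrays of the same replicate number at -0.038, 0.046 and -0.017, so the numbers were not taken to pair arrays.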

Additional observations from a re-analysis of the deposited data

Results flagged for a closer look

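In 2 of 77 sets of 4 KO values, 1 array lay farther from the others than Dixon's 95% limit allows, where chance alone would place about 1 set in 20 there. Mrpl12 read 9.09 on KO 3, against 9.29 to 9.33 on the other KO arrays. Tsfm read 9.70 on KO 2, against 9.27 to 9.33.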

How the results depend on the processing

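Leaving out 1 array at a time, the number of genes called over all genes ranged from 0 to 4931 and of members from 0 to 22, where all calls came without WT 3, and members without overlap ranged from 15 to 46. Median differences ranged from -0.16 to -0.044 (large subunit), -0.15 to -0.056 (small subunit) and 0.030 to 0.12 (synthetases). Large minus small ranged from -0.069 to -0.018, synthetases minus ribosomal proteins from 0.11 to 0.20, and Opa1 from -1.50 to -0.995 (limma, adjusted p = 0.0764 to 0.584). Single synthetases near 0 changed sign over these settings: Cars2 from -0.017 to 0.16, Mars2 from -0.15 to 0.026, Nars2 from -0.18 to 0.056, Pars2 from -0.027 to 0.19 and Vars2 from -0.23 to 0.11. With array weights, which gave WT 3 a weight of 0.241 and WT 1 a weight of 1.95, limma called 4458 genes (22.9%) and 20 members (15 lower, 5 higher), all 20 also called without WT 3, and Nars2 was 0.074. Without WT 1 and WT 2, 31 of the 93 members did not overlap, against 42.3% of all genes. In that setting the synthetase median was -0.021 and synthetases minus ribosomal proteins 0.033. There Mrpl42 (-0.039), Mrps9 (-0.14), Aars2 (-0.12), Cars2 (-0.19), Fars2 (-0.15), Lars2 (-0.021), Mars2 (0.082) and Vars2 (0.43) changed sign. Median centring moved the synthetase median to 0.11 and Vars2 to 0.048, and quantile normalization moved them to 0.15 and 0.056 and Mars2 to 0.012, while both ribosomal medians kept their sign (-0.043 and -0.043 after centring, -0.033 and -0.044 after quantile normalization). The replicate block left 0 genes and 0 members called, with medians of -0.061, -0.058 and 0.050 for large subunit, small subunit and synthetases, and turned Cars2 to -0.0020; it changed no call. Opa1 has no value under the filter on dim probe sets, which removes it. Median centring moved the median difference of all genes as well, from 0.059 to 0.116, while quantile normalization left it at 0.061. Centring changes every gene of an array by the same amount. Why the other settings moved the values was not tested.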
